A study of Mus musculus with 6 samples.

Results

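Chemokine receptor transcripts were followed in Tregs, regulatory CD4 T cells that depend on the factor Foxp3 and hold other lymphocytes in check. The genes were 9 receptors taken by name, Ccr2, Ccr4, Ccr6, Ccr7, Ccr8, Ccr9, Cxcr4, Cxcr5 and Cxcr6, of 37187 genes in the deposited tables. Each had 1 row in the raw counts, the normalized counts and the FPKM values (fragments scaled to gene length and library depth). Of the 9, Ccr7, Cxcr4 and Cxcr5 were grouped as lymphoid homing receptors and the other 6 as tissue homing receptors. All 9 passed the filter on low counts.

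Bulk RNA sequencing covered 6 libraries of Tregs from tumour-draining lymph nodes, sorted as CD4+CD25+GITR+ cells, which the labels also call Foxp3+. The KO group held 3 libraries, replicates 4 to 6, from il33-/- mice on a C57BL6 background. The WT group held 3 libraries, replicates 1 to 3, from C57BL6 mice. Mice of both groups had received 300000 B16.F10 melanoma cells, a transplantable tumour line of C57BL/6 mice, under the skin, and nodes were taken on day 14. The labels give no age and do not say whether a library came from 1 animal or from pooled animals, so p-values speak only of how far these libraries scatter, which may be technical.

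Chemokine receptors are seven-transmembrane receptors coupled to inhibitory G proteins, and they steer lymphocytes along gradients of chemokines. CCR7 reads CCL19 and CCL21 and brings T cells into the T zone of the node, CXCR5 reads CXCL13 and leads cells to B cell follicles, and CXCR4 reads CXCL12 from stromal cells. CCR2, CCR4, CCR6, CCR8, CCR9 and CXCR6 guide effector and memory T cells into inflamed tissue, skin, mucosa or gut, and CCR4 and CCR8 are known for their high level on activated Tregs.

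Total counts ran from 20877014 to 21073195 in KO libraries and from 18071928 to 21165063 in WT libraries, so that 3 counts correspond to 0.142 to 0.144 CPM (library-scaled counts, edgeR's CPM unit with TMM factors) in KO and 0.142 to 0.166 CPM in WT. Il33 had 3, 8 and 2 reads in KO replicates 4, 5 and 6, against 7, 0 and 9 reads in WT replicates 1, 2 and 3, too few to be tested or to check the labels. Foxp3 had 790 to 857 CPM in KO and 719 to 803 CPM in WT, and Cd4, Il2ra (CD25) and Tnfrsf18 (GITR) were present in every library. Of 6 sort and Treg markers Ctla4 alone was called, as higher in KO (edgeR adjusted p = 0.0022), beside 3.68% of all genes tested. It had 909 to 1002 CPM in KO and 579 to 724 CPM in WT. The 6 markers summed to 4209 to 4500 CPM in KO and 3512 to 4074 CPM in WT. The 15 T lineage markers summed to 6793 to 7281 CPM in KO and 6313 to 6778 CPM in WT. Of them only Cd28 was called, as higher, beside 3.68% of all genes tested. Their part in the receptor values was not tested. Markers of B cells stood out among those of other cell types. Of 18 measured B cell markers, 14 were lower in every KO library than in every WT library, beside 12.6% of all genes tested. Of the 18, 1, Vpreb3, passed the test as lower, beside 2.83% of all genes tested, and none was at 0. Their sum was 1347 to 1676 CPM in KO and 2226 to 3580 CPM in WT. WT replicate 2 differed from the other WT libraries in these markers. Without Cd72, which alone reached 558 CPM in WT replicate 2, the sums were 1302, 1633 and 1309 CPM in KO replicates 4, 5 and 6, against 3494, 1668 and 2875 CPM in WT replicates 1, 2 and 3. In these sums Ighm alone was 924 to 1118 CPM in KO, against 1447, 1060.5 and 1302 CPM in WT replicates 1, 2 and 3. Several of the 9 receptors, Ccr6, Ccr7, Cxcr4 and Cxcr5 among them, are also expressed by B cells.

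Of the 9 receptors, Cxcr4 and Ccr8 rose in KO Tregs, none fell and 7 did not pass edgeR's quasi-likelihood test at a Benjamini-Hochberg adjusted p of 0.05 over all 13626 genes tested. Across all of these genes 3.68% were called higher and 2.83% lower in KO, 6.50% in all. The risen genes were 1 of 3 lymphoid and 1 of 6 tissue receptors, that is, a gene of each class. At an unadjusted edgeR p of 0.05, Ccr6 and Ccr7 also lay above and Ccr9 below their WT level. The share of all genes past that looser threshold was not counted, so these are not read as changes. By DESeq2 1 receptor, Cxcr5, was called lower, and by limma-voom none was. The median log2 fold change was -0.01 over the 9 receptors and 0.00 over all genes tested. In bulk samples, fewer cells of a type and less RNA per cell cannot be told apart.

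**Figure D1:**
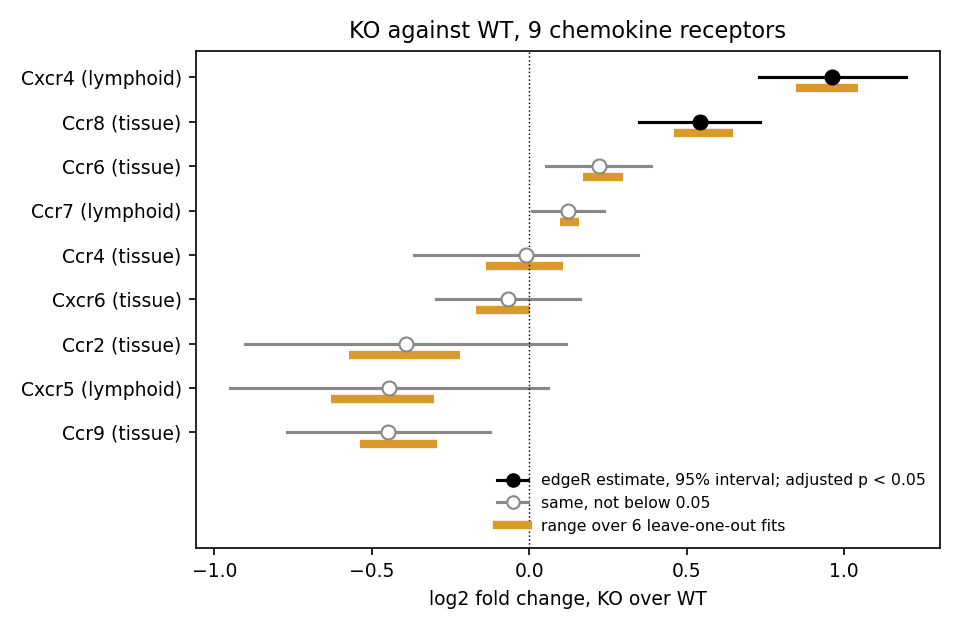
Log2 fold change of KO over WT for the 9 receptors, with the 95% interval of the edgeR fit as a line, and the range of the estimate over 6 fits that each left out 1 library as an orange bar. Filled points had an adjusted p below 0.05. Cxcr4 at 0.96 and Ccr8 at 0.54 stand apart from the other 7 genes, whose estimates lie between -0.45 and 0.22.

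Among the lymphoid receptors, Cxcr4 made the largest move of the 9 genes. Cxcr4 (ENSMUSG00000045382) lies on the minus strand of chromosome 1 of GRCm38, from 128588199 to 128592293, and no other annotated gene overlaps it. Its level was 179, 187 and 229.7 CPM in KO replicates 4, 5 and 6, against 99.1, 112 and 94.1 CPM in WT replicates 1, 2 and 3. Every KO library lay above every WT library, and KO replicate 6 was the highest. The mean was 199 ± 27.2 CPM in KO and 102 ± 9.47 CPM in WT (SD, n = 3 each). The log2 fold change was 0.96 (SE 0.10, 95% interval 0.73 to 1.20, edgeR adjusted p = 0.00138), a 1.95-fold higher level in KO. It passed on leaving out each of the 6 libraries, with log2 fold changes of 0.85 to 1.04 and edgeR adjusted p-values of 0.000116 to 0.00764.

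Ccr8 was the tissue receptor that rose. CCR8 reads CCL1 and, in mice, CCL8. Ccr8 (ENSMUSG00000042262) lies on the plus strand of chromosome 9, from 120092114 to 120094906, without overlap by another gene. It had 56.6, 59.2 and 52.2 CPM in KO replicates 4, 5 and 6, against 34.1, 43.7 and 37.6 CPM in WT replicates 1, 2 and 3. The groups did not overlap, and WT replicate 2 was the WT library closest to the KO libraries. Its log2 fold change was 0.54 (SE 0.09, 95% interval 0.35 to 0.73, edgeR adjusted p = 0.00371), a fold of 1.46. On leaving out single libraries the log2 fold change was 0.46 to 0.65, with adjusted p-values of 9.88e-05 to 0.0337.

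The promoters of Cxcr4 and Ccr8 are shown because these are the members that rose. The windows, from RefSeq on GRCm38.p6, hold 250 bases before and 50 bases after the start site, and 7 of the 9 receptors had at least 1 such window. Capitals mark matches, on either strand, to 6 short motifs. The letters AGATAA were searched for the GATA family of factors, and GGAAA for NFAT proteins. The letters TGANTCA stand for AP-1, the letters TGACGTCA for CRE, the cAMP response element, the letters GTAAACA for FOXO factors and the letters ACGTG for HRE, the hypoxia element. The Cxcr4 window is chr1:128592250-128592549 on the minus strand and the Ccr8 window chr9:120091883-120092182 on the plus strand.
Cxcr4: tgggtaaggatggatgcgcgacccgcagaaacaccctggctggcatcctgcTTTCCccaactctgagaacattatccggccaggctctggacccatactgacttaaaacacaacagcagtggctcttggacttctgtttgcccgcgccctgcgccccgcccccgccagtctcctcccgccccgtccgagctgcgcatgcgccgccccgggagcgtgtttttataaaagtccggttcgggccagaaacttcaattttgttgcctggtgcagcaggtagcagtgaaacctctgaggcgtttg
Ccr8: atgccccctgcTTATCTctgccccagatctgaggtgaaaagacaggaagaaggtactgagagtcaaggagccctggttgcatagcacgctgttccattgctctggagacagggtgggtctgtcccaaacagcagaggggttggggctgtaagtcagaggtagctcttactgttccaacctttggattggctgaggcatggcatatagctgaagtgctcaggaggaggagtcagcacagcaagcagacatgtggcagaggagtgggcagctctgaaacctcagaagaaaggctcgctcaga
The Cxcr4 window held 1 NFAT match, which 61.3% of 32851 mouse promoter windows also hold. The Ccr8 window held 1 GATA match, found in 11.2% of all windows. Neither held a match to AP-1, CRE, FOXO or HRE, which 7.81%, 1.79%, 3.65% and 19.6% of all windows hold, and no matches overlapped in these windows. The Cxcr4 window was rich in CpG, with 20 CpG pairs and a GC content of 59.3%, whereas the Ccr8 window had 2 CpG pairs and 54.0% GC. The median GC content of all windows was 52.7%. A match to such short letters is a description and does not show a bound factor.

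The other lymphoid receptors did not pass. Ccr7 (ENSMUSG00000037944, chromosome 11, 99144196 to 99155077, minus strand) had 245, 226 and 237 CPM in KO replicates 4, 5 and 6, against 219, 213 and 217 CPM in WT replicates 1, 2 and 3. The KO libraries all lay above the WT libraries, by a small margin, and the log2 fold change was 0.12 (SE 0.05, 95% interval 0.01 to 0.24, edgeR adjusted p = 0.189). The interval of Ccr7 lies below that of Cxcr4, although the difference between the genes was not tested. Cxcr5 (ENSMUSG00000047880, chromosome 9, 44511787 to 44561877, minus strand) had 45.1, 50.1 and 49.98 CPM in KO replicates 4, 5 and 6, against 78.1, 47.4 and 72.1 CPM in WT replicates 1, 2 and 3. Here WT replicate 2 lay within the KO range and the other WT libraries above it. The log2 fold change of Cxcr5 was -0.44 (SE 0.20, 95% interval -0.95 to 0.06, edgeR adjusted p = 0.285). Without WT replicate 2 it was -0.63 and passed at an edgeR adjusted p of 4.79e-05, while the adjusted p of the 20 alternatives ran up to 0.937. DESeq2 called Cxcr5 lower with all libraries, at an adjusted p of 0.0157. Cxcr5 shares 110 exonic bases with Bcl9l on the opposite strand, and whether the counting used strand is not stated by the labels.

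Markers of follicular T cells, which use CXCR5, had a sum of 134 to 144 CPM in KO and 132 to 135 CPM in WT. Of 4 tested 1, Pdcd1, was called, as higher in KO, beside 3.68% of all genes tested. WT replicates 1 and 3, with the highest summed B cell markers, also had the highest Cxcr5. WT replicate 2 lay within the KO range for Cxcr5. Its summed B cell markers without Cd72, of which Ighm was the largest, were close to those of KO replicate 5. With the B cell score, the mean log2 CPM of the 18 markers, as a covariate, the log2 fold change of Cxcr5 was 0.26 (edgeR adjusted p = 0.698), and with WT replicate 2 as the only WT library it was 0.03. Cxcr4 and Ccr8 were higher, and the summed B cell markers lower, in every KO library than in every WT library. The log2 fold change of Cxcr4 was 0.64 with the score as a covariate (edgeR adjusted p = 0.122) and 0.69 with the score without Cd72 (edgeR adjusted p = 0.0345, an alternative chosen after seeing the data). With WT replicate 2 as the only WT library, the log2 fold change of Cxcr4 was 0.82. The score without Cd72 was 5.015 in that library, above the 4.043 to 4.821 of the KO libraries. In WT replicates 1 and 3 it was 6.683 and 6.333. Ccr8 kept its direction in these 3 settings, at log2 fold changes of 0.33, 0.35 and 0.36. It did not pass under either score (edgeR adjusted p = 0.535 and 0.380). Over all 20 alternatives the adjusted p had its highest value under the score as a covariate for both Cxcr4 and Ccr8. Its lowest value came from edgeR without the low count filter, at 1.77e-45 for Cxcr4 and 5.70e-10 for Ccr8. That setting called 1645 genes, against 886 in the main fit. The score differs between the groups, and a lone WT library has to be taken to vary as the KO libraries do. The part of B cell RNA in the receptor values was not tested.

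**Figure D2:**
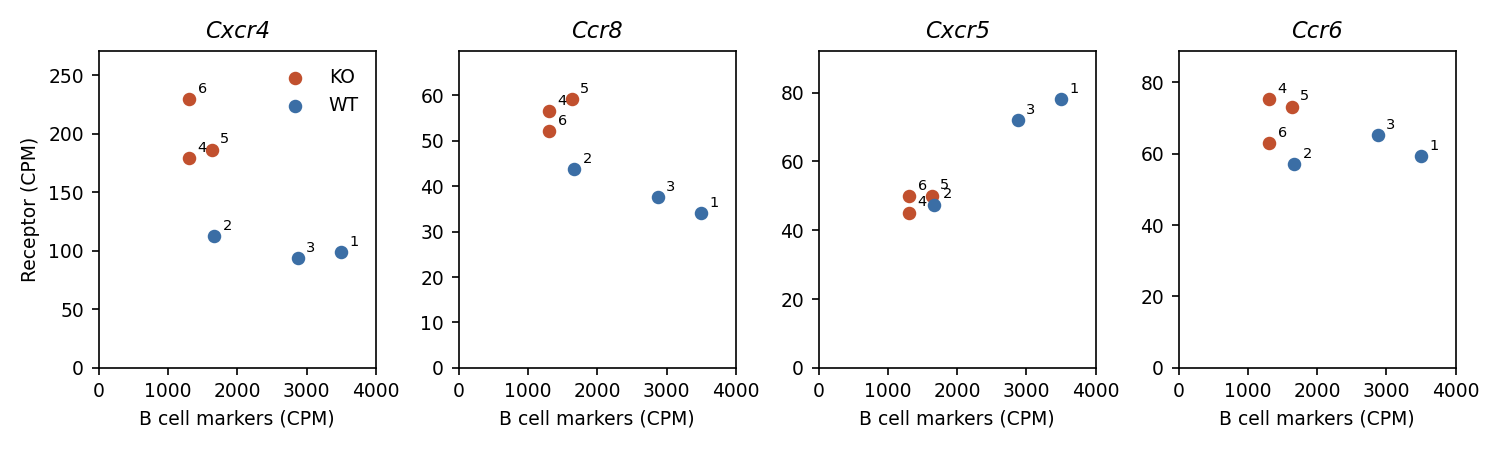
Receptor level against the summed level of 17 B cell markers (Cd72 left out), both in CPM, for KO and WT libraries, each point labelled with its replicate number. WT replicate 2, at 1668 CPM on the marker axis, lies next to KO replicate 5, at 1633 CPM, and Ighm makes up most of both sums. WT replicate 2 had a Cxcr5 level of 47.4 CPM. Its Cxcr4 level was 112 CPM, against 179 to 229.7 CPM in the KO libraries.

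The tissue receptors other than Ccr8 did not pass. Ccr6 (ENSMUSG00000040899, chromosome 17, 8236043 to 8257141, plus strand), the receptor for CCL20, had 75.3, 73.2 and 62.8 CPM in KO replicates 4, 5 and 6, against 59.2, 57.1 and 65.1 CPM in WT replicates 1, 2 and 3. Most KO libraries were above the WT libraries, with KO replicate 6 inside the WT range. The log2 fold change was 0.22 (SE 0.08, 95% interval 0.05 to 0.39, edgeR adjusted p = 0.114), and without the low count filter it passed at an edgeR adjusted p of 0.0312, the lowest of 20 alternatives, which ran up to 0.366. Adjusted for the B cell score, its log2 fold change was 0.40, and with the score without Cd72 it was 0.37, and neither passed. Ccr9, the gut homing receptor for CCL25 (ENSMUSG00000029530, chromosome 9, 123678439 to 123784330, plus strand), was the scarcest of the 9. It had 9.96, 6.91 and 9.76 CPM in KO replicates 4, 5 and 6, against 11.1, 12.9 and 12.3 CPM in WT replicates 1, 2 and 3. Ccr9 was the only member for which every KO library lay below every WT library, as did 12.6% of all genes, while 13.7% of all genes and 3 members, Cxcr4, Ccr7 and Ccr8, lay above. Its log2 fold change was -0.45 (SE 0.15, 95% interval -0.77 to -0.12, edgeR adjusted p = 0.0993). In the fit that holds the B cell score, the log2 fold change of Ccr9 was -0.83, and with the score without Cd72 it was -0.76, and neither passed. Without the low count filter Ccr9 passed at an adjusted p of 0.0282, the lowest of 20 alternatives, which ran up to 0.300. Ccr9 shares 1932 exonic bases with AC165425.1, an annotated gene on the opposite strand with 0 to 4 reads per library. Plasmacytoid dendritic cells also express Ccr9. Of 3 tested markers of these cells 2, Siglech and Tcf4, were called lower, beside 2.83% of all genes tested. B cells also express Tcf4. The third, Runx2, went the other way without passing, at 23.4 to 29.7 CPM in KO and 19.8 to 21.8 CPM in WT (log2 fold change 0.31). The sum of all 5 was 34.6 to 43.0 CPM in KO and 40.1 to 46.7 CPM in WT. Siglech, a surface marker of these cells, had 0.810 to 0.904 CPM in KO and 1.66 to 2.76 CPM in WT. The part of such cells in Ccr9 was not tested.

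Ccr2, Ccr4 and Cxcr6 had overlapping groups and intervals that included 0. Ccr2 (ENSMUSG00000049103, chromosome 9, 124101950 to 124113557, plus strand), the receptor for CCL2 on monocytes and effector T cells, had 58.0, 95.8 and 78.5 CPM in KO replicates 4, 5 and 6, against 91.8, 105 and 108 CPM in WT replicates 1, 2 and 3. KO replicate 4 was the lowest library and KO replicate 5 lay inside the WT range. Its log2 fold change was -0.39 (SE 0.20, 95% interval -0.90 to 0.12, edgeR adjusted p = 0.347). Leaving out KO replicate 4 gave -0.22 and leaving out KO replicate 5 gave -0.57, and neither passed. Monocyte and macrophage markers summed to 28.0 to 47.7 CPM in KO and 43.1 to 54.8 CPM in WT. Of 7 tested 1, Ly6c2, was called lower, beside 2.83% of all genes tested. None of the markers was at 0 in all libraries, though Cd14 was at 0 in some. The part of such markers in Ccr2 was not tested. Ccr4 (ENSMUSG00000047898, chromosome 9, 114490316 to 114504916, minus strand), the receptor for CCL17 and CCL22, had 82.1, 114 and 96.3 CPM in KO replicates 4, 5 and 6, against 86.9, 113 and 94.4 CPM in WT replicates 1, 2 and 3. The groups spanned nearly the same range, and the log2 fold change was -0.01 (95% interval -0.37 to 0.35, edgeR adjusted p = 0.981). Its sign turned with upper-quartile scaling or on leaving out KO replicate 4, KO replicate 6 or WT replicate 2. Cxcr6 (ENSMUSG00000048521, chromosome 9, 123806475 to 123811760, plus strand), the receptor for CXCL16, had 20.7, 19.7 and 24.8 CPM in KO replicates 4, 5 and 6, against 20.9, 23.8 and 23.5 CPM in WT replicates 1, 2 and 3. These also overlapped, with a log2 fold change of -0.07 (95% interval -0.30 to 0.16, edgeR adjusted p = 0.778) whose sign turned, at 0.00, without KO replicate 5. After adjustment for B cell score, it was -0.34, and -0.29 with the score without Cd72, without passing.

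Per unit of gene length, Ccr7 and Cxcr4 led the order in both groups. In KO libraries the mean FPKM was 119 ± 4.87 for Ccr7, 109 ± 14.5 for Cxcr4, 48.1 ± 3.22 for Ccr8, 34.8 ± 5.73 for Ccr4, 34.5 ± 3.39 for Ccr6, 17.03 ± 0.970 for Cxcr5, 12.04 ± 2.95 for Ccr2, 11.4 ± 1.36 for Cxcr6 and 1.87 ± 0.357 for Ccr9 (SD, n = 3). In WT libraries it was 109 ± 1.32 for Ccr7, 56.1 ± 5.33 for Cxcr4, 35.1 ± 4.88 for Ccr4, 33.2 ± 4.26 for Ccr8, 29.7 ± 2.0 for Ccr6, 23.2 ± 5.70 for Cxcr5, 15.9 ± 1.36 for Ccr2, 11.97 ± 0.832 for Cxcr6 and 2.56 ± 0.200 for Ccr9 (SD, n = 3). Cxcr4 overlapped Ccr7 in KO, where it was the higher of the pair in replicate 6, and lay below Ccr7 in every WT library. Ccr8 ranked above Ccr4 in KO without overlap, whereas in WT the ranges of Ccr4, Ccr8 and Ccr6 overlapped, although within each of the 3 WT libraries Ccr4 was above Ccr8 and Ccr8 above Ccr6. Other neighbours whose ranges overlapped were Ccr4 and Ccr6 or Ccr2 and Cxcr6 in KO, and Cxcr5 and Ccr2 in WT. The normalized count per unit of FPKM, which stands in for the gene length the authors used, was 23.4 for Ccr8, 95.3 for Ccr9 and 129 for Ccr2. Exonic lengths in GENCODE M21 are 1175, 10260 and 6760 bases for these genes, so the authors' length for Ccr9 was shorter relative to the other genes, and its FPKM would be lower with the full exonic length.

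**Figure D3:**
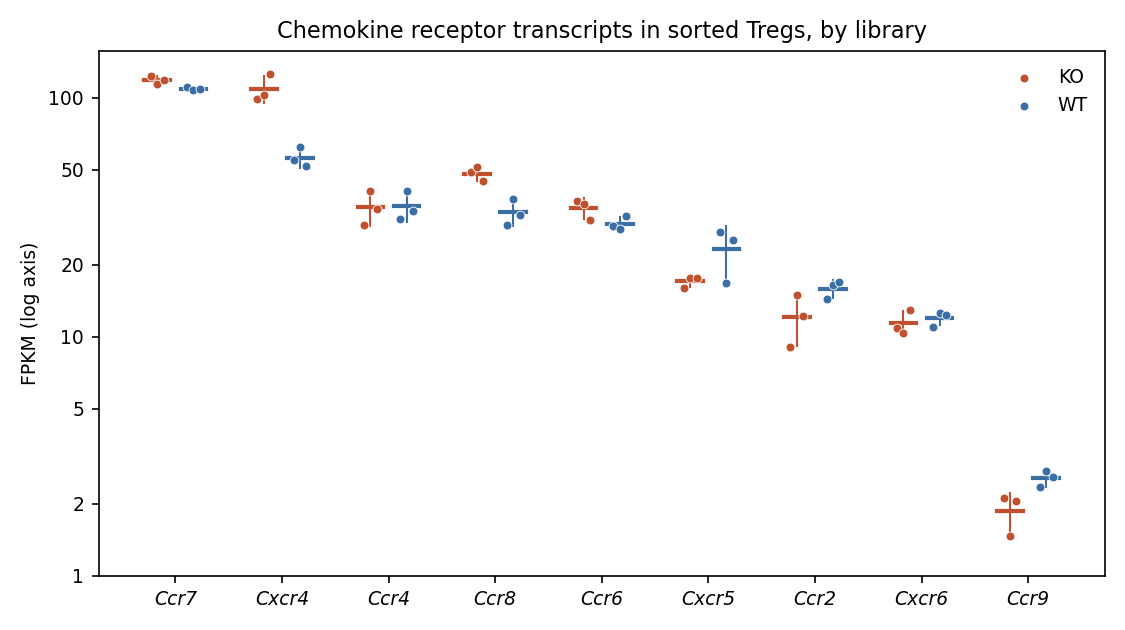
FPKM of the 9 receptors on a log axis, by library, with KO left of WT for each gene. Points are libraries, horizontal lines are group means and vertical lines 1 SD (n = 3). Ccr7 is at 108 to 124 FPKM in all 6 libraries, and Cxcr4 is at 98.8 to 126 FPKM in KO and 51.8 to 62.1 FPKM in WT.

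The balance of lymphoid to tissue receptors overlapped between the groups, while the summed level of the 9 did not. Summed over 9 receptors, FPKM reached 375, 389 and 398 in KO replicates 4, 5 and 6, against 309.6, 325 and 316 in WT replicates 1, 2 and 3. All KO sums were above all WT sums. The lymphoid receptors held 63.5%, 60.3% and 65.7% of this sum in KO replicates 4, 5 and 6, against 62.2%, 57.5% and 58.9% in WT replicates 1, 2 and 3, and the groups overlapped. The tissue to lymphoid ratio was 0.585 ± 0.0691 in KO and 0.682 ± 0.0668 in WT (SD, n = 3 each). With Cxcr4 left out of the lymphoid sum the ratio was 1.05 ± 0.101 in KO and 0.98 ± 0.130 in WT. Cxcr4 alone made up 26.3% to 31.6% of the summed FPKM in KO and 16.4% to 19.1% in WT. Its ratio to Ccr7 was 0.799, 0.903 and 1.06 in KO replicates 4, 5 and 6, against 0.495, 0.576 and 0.474 in WT replicates 1, 2 and 3. These sums follow single members and carry no test.

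**Figure D4:**
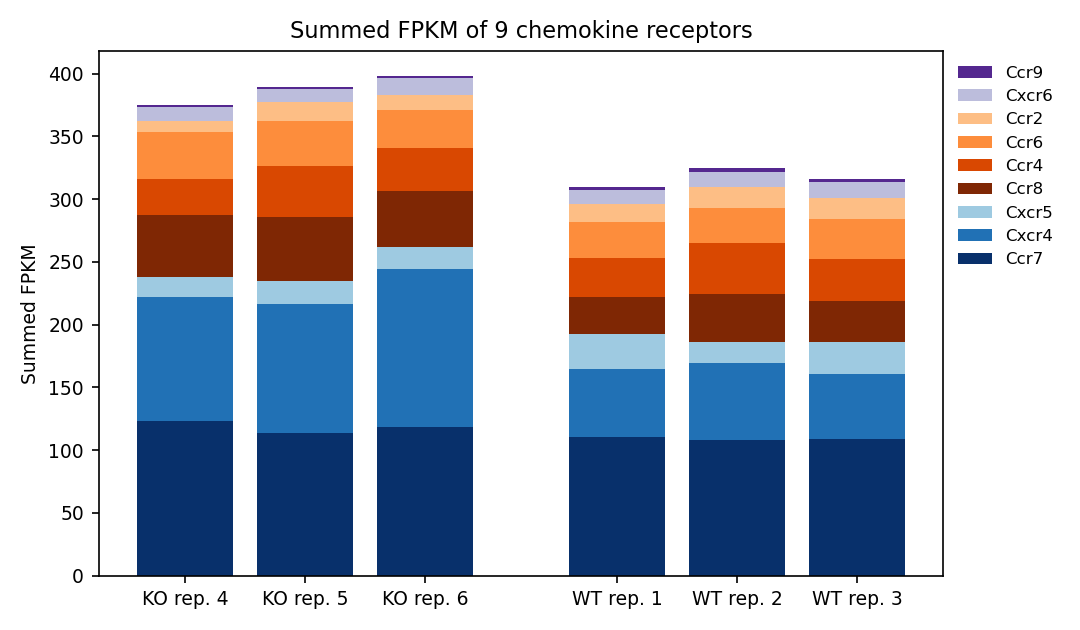
Summed FPKM of the 9 receptors in each library, stacked by gene with the lymphoid receptors in blue at the bottom. The KO bars reach 375 to 398 and the WT bars 309.6 to 325, and the Cxcr4 block accounts for most of the gap.

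In their pattern over the 6 libraries, Ccr6 and Ccr7 were the closest pair of members. Likeness was measured as the root mean square difference of log2 CPM, each less the mean of its gene, and was 0.111 for this pair. Cxcr4 and Cxcr5 were the least alike, at 0.751. Among 8784 other protein-coding genes with a mean of at least 10 CPM, the genes nearest to Cxcr4 were Camk2b, a calcium/calmodulin-dependent kinase subunit, at 0.102, and Rrad, a small GTPase, at 0.135. Those nearest to Ccr8 were Il15ra, which encodes the IL-15 receptor alpha chain, at 0.0385, and Nav2 at 0.0556. Those nearest to Ccr9 were Rln3, a relaxin, at 0.0850, and Cd8b1, which encodes a CD8 chain, at 0.111. CD8 T cells can express Ccr9, and the 2 CD8 genes summed to 22.3 to 31.0 CPM in KO and 32.7 to 36.2 CPM in WT. The part of such cells was not tested. Log2 fold changes were 1.02, 0.81, 0.55, 0.53, -0.40 and -0.34 for Camk2b, Rrad, Il15ra, Nav2, Rln3 and Cd8b1. Because these genes were picked for likeness over the same 6 libraries, fold changes near those of the member follow from the choice. Nav2 lost its call without KO replicate 4, KO replicate 5 or WT replicate 3, with edgeR adjusted p-values reaching 0.0774, and Rln3 and Cd8b1 did not pass. Given the B cell score as a model term, Camk2b, Rrad, Il15ra and Nav2 had log2 fold changes of 0.56, 0.58, 0.38 and 0.22 and did not pass, with edgeR adjusted p-values of 0.343, 0.0647, 0.578 and 0.775.

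Among other chemokine receptors, 1 gene fell. Of 16 on the list, 10 passed the filter. Of these 1 fell, beside 2.83% of all genes tested, and 9 did not pass the test. The median log2 fold change was -0.41 against 0.00 over all genes tested. The gene that fell, Ccr3, an eotaxin receptor best known on eosinophils, had 4.19, 5.76 and 4.57 CPM in KO replicates 4, 5 and 6, against 6.98, 9.72 and 9.13 CPM in WT replicates 1, 2 and 3. These ranges did not overlap. Its log2 fold change was -0.83 (SE 0.18, edgeR adjusted p = 0.0154), and the adjusted p was 0.0501, 0.0765 and 0.0762 without KO replicate 4, KO replicate 6 and WT replicate 3. Once the B cell score was a model term, Ccr3 had -1.03 and did not pass (edgeR adjusted p = 0.274). Ccr3 lies on chromosome 9, as do 6 of the 9 members.

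The ligands of the 9 receptors were rare in the sorted cells. Of 14 ligand genes 6 passed the filter. Of these 2 fell, beside 2.83% of all genes tested, and 4 did not pass the test, with a median log2 fold change of 0.26. The genes that fell were Ccl22, a ligand of CCR4, at 1.91, 3.14 and 2.57 CPM in KO replicates 4, 5 and 6, against 6.74, 4.06 and 6.97 CPM in WT replicates 1, 2 and 3, and Cxcl16, the ligand of CXCR6. Ccl22 changed by -1.22 on the log2 scale (SE 0.25, edgeR adjusted p = 0.0124), with adjusted p-values of 0.0654 and 0.0713 without KO replicate 6 and WT replicate 3. Cxcl16 had 1.19 to 1.43 CPM in KO and 2.03 to 4.32 CPM in WT, a log2 change of -1.16 (SE 0.32, edgeR adjusted p = 0.0444). Its call was lost on leaving out any library but WT replicate 2, with adjusted p-values of up to 0.256 without WT replicate 1. Both are made by B cells and dendritic cells. The summed level of 7 dendritic cell markers was 6.56 to 8.81 CPM in KO and 6.18 to 11.4 CPM in WT, with none of 5 tested called. None of the 7 was at 0 in all libraries, though Clec9a and Cd209a were at 0 in some. Under the B cell score as a covariate Ccl22 and Cxcl16 had log2 fold changes of -0.32 and -0.14. The part of such cells was not tested further. Of 22 other chemokine ligands 9 passed the filter. Of these 2 rose, beside 3.68% of all genes tested, and 7 did not pass the test, with a median of -0.03. Cxcl2, a neutrophil attractant, had 2.86, 2.43 and 2.48 CPM in KO replicates 4, 5 and 6, against 0.664, 0.624 and 0.609 CPM in WT replicates 1, 2 and 3, a log2 change of 2.02 (SE 0.29, edgeR adjusted p = 0.00145). Cxcl10, an interferon-induced ligand of CXCR3, had 12.6 to 16.7 CPM in KO and 3.70 to 8.69 CPM in WT (log2 fold change 1.34, SE 0.29, edgeR adjusted p = 0.0394). Under the B cell score Cxcl2 and Cxcl10 had 2.03 and 1.46 and did not pass (edgeR adjusted p = 0.241 and 0.565). The Cxcl10 call was also lost without WT replicate 2 or any KO library, with adjusted p-values of up to 0.122.

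**Figure D5:**
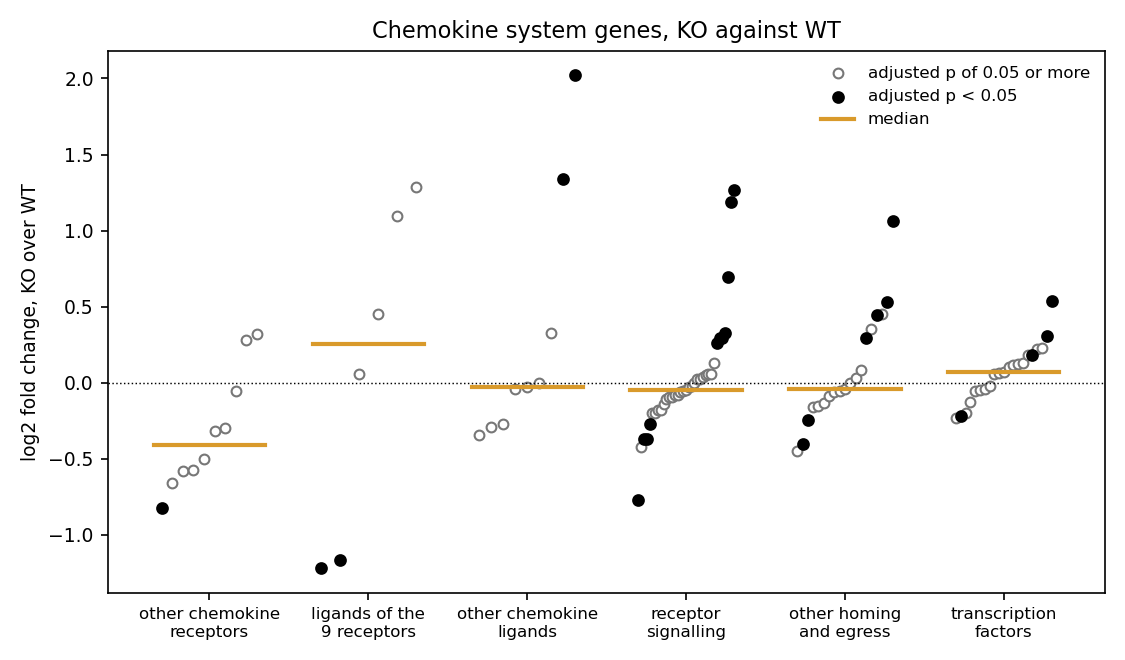
Log2 fold change of KO over WT for the measured genes of 6 lists of the chemokine system, sorted within each list, with filled points for an adjusted p below 0.05 and an orange line for the median of each list. Called genes lie on both sides of 0 among the 35 signalling genes tested (7 higher, 4 lower). Of all genes tested 3.68% were called higher and 2.83% lower. The other chemokine receptors have the lowest median, at -0.41.

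Genes that relay or switch off chemokine receptor signals changed in both directions. Of 38 genes 35 were measured, 7 rose, 4 fell and 24 did not pass, with a median log2 fold change of -0.05. RGS proteins speed the shut-off of G proteins, and Rgs2 was at 199 to 219 CPM in KO and 75.8 to 102 CPM in WT, a log2 change of 1.19 (SE 0.10, edgeR adjusted p = 0.000252). Rgs1, which restrains the response of lymphocytes to chemokines, was at 556 to 580 CPM in KO and 295 to 398 CPM in WT, a log2 change of 0.70 (SE 0.10, edgeR adjusted p = 0.00444). Rhoh, a haematopoietic GTPase, rose by 0.30 (SE 0.06, edgeR adjusted p = 0.00921). Pik3cg, the catalytic subunit of the kinase that G protein subunits switch on, changed by -0.37 on the log2 scale (SE 0.06, edgeR adjusted p = 0.00227). Its level was 63.4 to 68.6 CPM in KO libraries and 85.6 to 86.7 CPM in WT libraries. In the model with B cell score, Rgs2 passed, at 0.83 (edgeR adjusted p = 0.0159). Rgs1, Rhoh and Pik3cg did not pass, at 0.40, 0.27 and -0.31 and edgeR adjusted p-values of 0.340, 0.501 and 0.407.

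Other homing and egress receptors also split. Of 19 measured, 4 rose, 2 fell and 13 did not pass, with a median of -0.04 on the log2 scale. For comparison, 6.50% of all genes tested were called. Cd69, which holds lymphocytes in tissue by opposing the egress receptor S1PR1, rose by 1.06 (SE 0.09, edgeR adjusted p = 0.000143), and P2ry10 rose by 0.44 (SE 0.07, edgeR adjusted p = 0.00209). S1pr4, a sphingosine phosphate receptor, changed by -0.40 on the log2 scale (SE 0.06, edgeR adjusted p = 0.00227). Under the B cell score Cd69 passed, at 0.87 (edgeR adjusted p = 0.0399), while P2ry10 and S1pr4, at 0.46 and -0.40, did not (edgeR adjusted p = 0.230 and 0.274).

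Of transcription factors known to act on these receptors, 21 of 22 were measured, 3 rose, 1 fell and 17 did not pass. Their median log2 fold change was 0.07, and the share called over all genes tested was 6.50%. Gata3 and Tbx21 had log2 fold changes of 0.31 and 0.54, Foxo1, which sustains Ccr7 expression in T cells, 0.18 (SE 0.05, edgeR adjusted p = 0.0442), and Satb1 -0.22 (SE 0.06, edgeR adjusted p = 0.0394). Klf2, which drives S1pr1 and was chosen after its value was seen, had 0.18 and did not pass. Gata3, Tbx21 and Satb1 each lost their call without KO replicate 5, KO replicate 6, WT replicate 1 or WT replicate 3, with adjusted p-values of up to 0.106, 0.115 and 0.178, and Foxo1 lost it on leaving out any library, with values of up to 0.153. None of these 4 passed under the B cell score, with edgeR adjusted p-values of 0.526 to 0.874.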

How the data were processed

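The tables used were all deposited by the authors, with raw counts per Ensembl ID and, per symbol, normalized counts and FPKM. bcl2fastq, STAR 2.4.2a and DESeq2 are named, with the build GRCm38, in the submitters' processing notes, and no source used here gives the counting tool, strand setting or annotation release. The normalized counts are a depth-scaled signal that the authors deposited. For 99.87% or more of genes above 50 counts they equalled the count over a single factor of that library, to 1e-06. The authors' FPKM equalled normalized counts over a constant of each gene.

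The test was edgeR 4.0.16 under R 4.3.3 on raw counts (filterByExpr, TMM, robust quasi-likelihood, two-sided, Benjamini-Hochberg over 13626 genes, threshold 0.05). CPM use TMM factors, and standard errors come from the F statistic. GENCODE M21 matched 35412 of 37187 IDs. Named were all 9 receptors, up to 4 called genes with the smallest p from each further list, and the 2 genes nearest in pattern to each of the 3 members with the smallest p. Members and lists were chosen with earlier results of these data known.

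In simulated data (5 draws, 200 of 13626 genes changed) the test found 22.4% of changes of 1.25-fold, 60.8% of 1.5-fold, 79.6% of 2-fold and 92.4% of 4-fold, with 4.90% of calls false. The draws took each gene as independent, with the scatter typical of its level. They held no difference shared by many genes of a library, such as that in B cell markers, so the false share does not cover it. Libraries of a group differed by a chi-square of 5.16 to 14.6 per degree of freedom, so none was a duplicate. Alternatives were DESeq2 1.42.0, limma 3.58.1 (voom, log2(FPKM + 1), log2(FPKM + 0.1), log2(normalized count + 1)), other scaling, filters and thresholds, leaving out libraries, and a B cell score in the model. Floors of 3 counts cover counting error only. Some genes that the naming rule picks are not reported here.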

Additional observations from a re-analysis of the deposited data

How the results depend on the processing

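No paired analysis was possible because the replicate numbers, 4 to 6 in KO and 1 to 3 in WT, are not shared. The 2 receptors called higher became 0 when the B cell score joined the model, 1 with that score less Cd72 (an alternative added once the data were seen), 1 without WT replicate 1 and WT replicate 3, and 3 with no low count filter (Ccr6 added), and stayed 2 on leaving out each single library. The 0 receptors called lower became 1 with DESeq2 or without WT replicate 2 (Cxcr5), and 1 with no low count filter or an adjusted p under 0.1 (Ccr9). On leaving out single libraries the count ran from 0 to 1. Cxcr5 turned to log2 fold changes of 0.26 under the score and 0.18 under the score without Cd72, and over fits that left out libraries it ran from -0.63 (WT replicate 2 out) to 0.0303 (WT replicates 1 and 3 out). Ccr4 turned to 0.0118 with upper-quartile factors. On leaving out libraries it ran from -0.214 (WT replicates 1 and 3 out) to 0.109 (WT replicate 2 out), and was 0.101 and 0.00064 with KO replicate 4 or 6 out. Cxcr6 ran from -0.169 (KO replicate 6 out) to 0.0013 (KO replicate 5 out) on leaving out libraries, and was -0.34 under the score and -0.288 under the score without Cd72.

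The 886 genes called became 1645 with no filter, 374 and 383 with limma on log2(FPKM + 1) and log2(FPKM + 0.1), 275 and 1412 at thresholds of 0.01 and 0.1, 40 and 76 with the B cell score with and without Cd72, 282 without WT replicate 1 and WT replicate 3, and 367 to 1364 on leaving out single libraries. The 1 other chemokine receptor called became 2 with no filter, 0 with limma on FPKM under either pseudocount, 0 with either score, 0 at 0.01, and 0 to 2 on leaving out single libraries. The cause was not tested. The log2 tissue to lymphoid ratio differed by -0.22 between KO and WT and moved by less than the replicate SD on leaving out libraries or with normalized counts. Ccr7, Ccr6, Ccr2 and Ccr9 kept their direction in all 20 alternatives. Genes below a few CPM, such as the ligands, are limited by depth.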

Other observations

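KO replicate 4 had the lowest level among the KO libraries for some receptors of effector T cells but not for others. Ccr2, Ccr4 and Cxcr3 had 58.0, 82.1 and 32.2 CPM there. In KO replicate 5 they had 95.8, 114 and 45.7 CPM, within or near the WT range. By contrast, Ccr6 and Ccr9 were highest among the KO libraries in KO replicate 4, at 75.3 and 9.96 CPM. Ccr8 was lowest in KO replicate 6, at 52.2 CPM, and Cxcr6 in KO replicate 5, at 19.7 CPM. Cxcr3, a receptor for CXCL10, had a log2 fold change of -0.05 and did not pass. Cd72, a B cell marker, had 41.2 to 44.9 CPM in KO libraries, against 86.1, 558 and 73.0 CPM in WT replicates 1, 2 and 3, while the other B cell markers of WT replicate 2 were the lowest of the WT libraries. These genes were chosen after their values were seen.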
